A study of Bos taurus with 9 samples.

Results

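The proteasome genes of the bovine array were described here in muscle and in the fat of 2 body sites. Members were all genes whose annotated symbol starts with PSMA, PSMB, PSMC, PSMD, PSME, PSMF or PSMG followed by a digit and that had a probe set with exactly 1 annotated symbol. The rule found 46 probe sets of the 24016 tested, for 40 of the 9155 genes named by such a probe set, and where a gene had several, the one brightest on average across all 9 arrays stood for it. The naming rule itself uses no measured difference.

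The proteasome is the barrel-shaped protease that degrades proteins tagged with ubiquitin. Its core, known as the 20S particle, stacks outer rings of alpha subunits, which gate the channel, on inner rings of beta subunits, of which PSMB5, PSMB6 and PSMB7 carry the active sites. The regulatory or 19S particle that caps the core has a base with a ring of ATPases, which unfold substrates and feed them into the core, and a lid that removes the ubiquitin chains. In cells exposed to interferon the active-site subunits can be replaced by PSMB8, PSMB9 and PSMB10, which gives the immunoproteasome, a form known for making peptides for class I antigen presentation. In skeletal muscle the ubiquitin-proteasome system is a main route by which myofibrillar proteins are broken down.

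All samples came from male Yan yellow cattle, a breed of Bos taurus, aged 24 months and kept under the same conditions, with no treatment and no genetic alteration named. The 3 groups, each of 3 arrays, were longissimus dorsi muscle, abdominal fat and subcutaneous fat (adipose tissue in the labels), and total RNA was hybridised to an Affymetrix bovine expression array. The labels speak of 9 bulls without tying samples to animals; the p-values given here therefore rest on the spread between samples, which may in part be technical. They name an RNA extraction kit for adipose tissue and none for muscle.

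Of 50 reference gene symbols that meet the naming rule, 40 had a probe set with 1 symbol. PSMA2, PSMA8, PSMB11, PSMC3IP, PSMD3, PSMD7, PSMD8, PSMD12, PSME3 and PSMG4 had none and were not analysed here. The 40 genes comprised 6 alpha subunits, 7 constitutive and 3 immunoproteasome beta subunits, 6 ATPases, 3 other base subunits, 4 lid subunits, 3 chaperones of the regulatory particle, 3 activators, 1 inhibitor, 3 chaperones of the core, and PSME3IP1, which encodes a protein that binds PSME3 and is not itself a subunit. No member had a tissue mean under log2 6, the level used as dim, and the lowest and highest tissue means were 6.95 and 12.34. The median SD over the 3 arrays of a tissue was 0.16 in muscle, 0.15 in abdominal and 0.10 in subcutaneous fat. A probe set's brightness depends on its own probes, so levels were compared between tissues and never between genes.

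The tissues could be told apart by their markers and also differed in measures of RNA quality. The summed linear intensity of a list of muscle markers was 51167 to 58852 in muscle and 3758 to 6966 in fat, and that of adipocyte markers was 2978 to 6700 and 27143 to 30737. Of the muscle markers the probe sets used for CKM and MYH7 went the other way, with fat higher by 1.46 and 0.60 on the log2 scale. They were the brightest of 2 for CKM and of 3 for MYH7 over all 9 arrays, and the others are not given here. Both probe sets count in the muscle marker sums. The ratio of 3′ to 5′ control probe sets of GAPDH was 0.937 to 1.012 in muscle and 1.208 to 1.735 in fat, and that of actin was 0.963 to 1.036 and 2.235 to 8.167. Fat lay higher than muscle in all these ratios. The array medians were 5.75 to 5.79 in muscle and 5.87 to 5.92 in fat, and centring each array on its median moved every fat-minus-muscle difference by -0.12 and the share of higher calls among all calls from 49.8% to 39.2%. The control ratios thus moved with tissue, and the part of RNA quality in the differences given here was not tested. In bulk tissue, fewer cells of a type and less RNA per cell cannot be told apart.

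Most proteasome genes were lower in fat than in muscle, and a pair of immunoproteasome genes was higher. With both depots averaged against muscle in limma, 28 of 40 genes were lower, 2 were higher and 10 did not pass an adjusted p of 0.05, which is called the threshold from here on. Over all probe sets, 26.4% were called lower and 26.2% higher; among the 5670 probe sets at least as bright as the dimmest member, the shares were 29.6% and 43.1%. The members' share of 70.0% lower therefore lay above both backgrounds. The median log2 difference of the members was -0.76, against -0.02 over all genes.

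The groups of arrays did not overlap for most members. All 6 fat arrays lay below all 3 muscle arrays for 27 genes and above them for 2, where 22.9% of all probe sets lay below and 21.9% above. The 24 called genes of the core and regulatory particle, out of 26, were all lower. Their differences were close to one another: the interquartile range over the 26 genes was 0.34 on the log2 scale, against 1.15 over all genes. Among complexes compared below, this range was 0.23 over 6 genes of the chaperonin CCT and 0.28 over 11 of the translation factor eIF3. It was 1.0 over 7 genes of the COP9 signalosome. The widest tissue difference was that of PSME4, an activator, and the only genes called higher were PSMB8 and PSMB9.

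**Figure D1:**
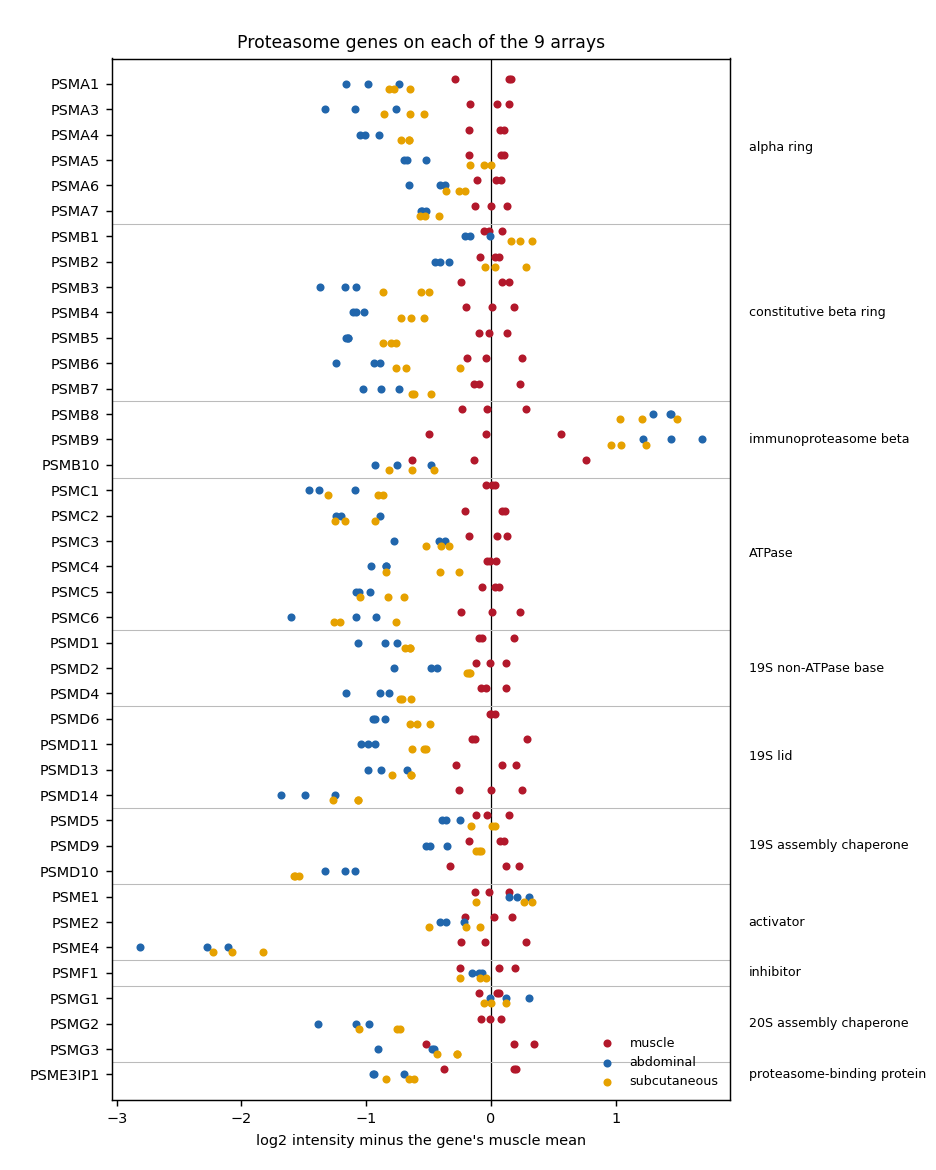
Log2 intensity of each of the 40 genes on each of the 9 arrays, given as the difference from that gene's mean over the 3 muscle arrays and grouped by role; points are single arrays, coloured by tissue. The fat arrays lie left of the muscle arrays for 27 genes and right of them for PSMB8 and PSMB9.

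The 6 measured alpha subunits were all lower in fat, with a median log2 difference of -0.68. PSMA3 read 11.86, 11.77 and 11.55 on the arrays of muscle, 10.96, 10.63 and 10.39 in abdominal and 11.07, 11.18 and 10.86 in subcutaneous fat. All fat arrays were below all muscle arrays, and the difference was -0.87 ± 0.15 (SE, 6 fat and 3 muscle arrays), or 1.83-fold (limma adjusted p = 0.000682). PSMA1 read 10.43, 10.45 and 10.00 in muscle, 9.55, 9.13 and 9.30 in abdominal and 9.51, 9.47 and 9.64 in subcutaneous fat. These arrays did not overlap either, and the difference was -0.86 ± 0.14 (limma adjusted p = 0.000585).

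PSMA4 behaved the same way with less spread. It read 10.65, 10.68 and 10.40 in muscle, 9.53, 9.57 and 9.68 in abdominal and 9.86, 9.92 and 9.92 in subcutaneous fat. The difference was -0.83 ± 0.10 (limma adjusted p = 9.82e-05). PSMA7 was lower by less, with a difference of -0.53 ± 0.10, from 12.21 to 12.47 in muscle and from 11.77 to 11.92 in fat.

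The smallest differences in the ring were those of PSMA5 and PSMA6. PSMA6 read 12.01, 11.97 and 11.82 in muscle, 11.52, 11.56 and 11.27 in abdominal and 11.67, 11.72 and 11.57 in subcutaneous fat. No fat array reached the muscle arrays; the difference was -0.38 ± 0.11 (limma adjusted p = 0.0147), and it did not pass the threshold without muscle array 1 (0.0558) or after quantile normalization (-0.27, 0.0635). PSMA5 read 10.69, 10.71 and 10.43 in muscle, 10.09, 9.91 and 9.94 in abdominal and 10.61, 10.44 and 10.55 in subcutaneous fat. Its subcutaneous arrays lay within the muscle range while its abdominal arrays lay below it. The difference of both depots together was -0.35 ± 0.11 (limma adjusted p = 0.0208), and without muscle array 1 or 2 the adjusted p was 0.074 or 0.0741.

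Of the 7 constitutive beta subunits, 5 were lower in fat, with a median log2 difference of -0.80 over the 7. PSMB5 encodes the subunit with chymotrypsin-like activity and had the largest difference in the ring. It read 11.27, 11.12 and 11.04 in muscle, 9.98, 9.99 and 9.99 in abdominal and 10.27, 10.38 and 10.34 in subcutaneous fat. The 3 tissues formed separate ranges, abdominal fat lowest, and fat was 1.98-fold below muscle, a difference of -0.98 ± 0.10 (limma adjusted p = 2.0e-05).

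The other active-site subunits also fell below muscle on every fat array. PSMB6, with caspase-like activity, read 11.81, 11.52 and 11.37 in muscle, 10.67, 10.32 and 10.62 in abdominal and 10.80, 10.88 and 11.31 in subcutaneous fat. One subcutaneous array came close to the lowest muscle array; the difference was -0.80 ± 0.16 (limma adjusted p = 0.00178). PSMB7, with trypsin-like activity, was at 10.77 ± 0.20 (SD, n = 3; lowest array 10.63) in muscle and read 10.03, 9.74 and 9.89 in abdominal and 10.14, 10.15 and 10.29 in subcutaneous fat. Fat and muscle were well separated, with a difference of -0.73 ± 0.12 (limma adjusted p = 0.000682).

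The remaining subunits of the beta ring have no active site, and they divided. PSMB3 read 11.22, 11.17 and 10.84 in muscle, 9.91, 10.00 and 9.71 in abdominal and 10.21, 10.52 and 10.58 in subcutaneous fat, a difference of -0.92 ± 0.14 (limma adjusted p = 0.000304). PSMB4 ranged from 11.66 to 12.04 in muscle, from 10.75 to 10.84 in abdominal and from 11.14 to 11.32 in subcutaneous fat, a difference of -0.85 ± 0.11. Both thus formed 3 ranges without overlap.

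PSMB1 and PSMB2 were the only core subunits that did not pass the threshold. PSMB1 read 10.92, 10.81 and 10.77 in muscle, 10.82, 10.66 and 10.62 in abdominal and 10.99, 11.06 and 11.16 in subcutaneous fat. The subcutaneous arrays were highest, the other tissues overlapped, and the difference was 0.05 ± 0.10 (limma adjusted p = 0.688), or -0.07 with centred arrays. PSMB2 ranged from 10.50 to 10.65 in muscle, from 10.14 to 10.25 in abdominal and from 10.54 to 10.87 in subcutaneous fat, a difference of -0.15 ± 0.11 (limma adjusted p = 0.253). A dimmer probe set of PSMB2 gave -0.42 ± 0.12 (limma adjusted p = 0.018).

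Of the immunoproteasome subunits, PSMB8 and PSMB9 were higher in fat while the subunits they replace were lower. PSMB8, which takes the place of PSMB5, read 7.23, 6.92 and 6.72 in muscle, 8.25, 8.39 and 8.38 in abdominal and 7.98, 8.16 and 8.44 in subcutaneous fat. All fat arrays were above all muscle arrays, by 1.31 ± 0.14 or 2.48-fold (limma adjusted p = 4.0e-05). PSMB9, which takes the place of PSMB6, read 7.51, 6.91 and 6.45 in muscle, 8.64, 8.39 and 8.17 in abdominal and 7.91, 7.99 and 8.19 in subcutaneous fat. Its muscle arrays were widely spread, yet none reached the fat arrays, and the difference was 1.26 ± 0.21 or 2.39-fold (limma adjusted p = 0.000681).

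PSMB10, which takes the place of PSMB7, was not higher in fat. It read 8.28, 9.18 and 7.79 in muscle, 7.94, 7.67 and 7.49 in abdominal and 7.60, 7.96 and 7.79 in subcutaneous fat. The muscle arrays spread over more than 1 log2 unit and overlapped both depots. The difference was -0.68 ± 0.26 (limma adjusted p = 0.0508), on the lower side in all 19 settings tried and past the threshold in 7 of them, among them without muscle array 3 (0.00654).

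The balance of the catalytic subunits was measured on each array as the log2 intensity of the replacing subunit less that of the constitutive one; its level depends on both probe sets, so only its shift between tissues was read. For PSMB8 less PSMB5 it was -4.04, -4.20 and -4.33 in muscle and ran from -2.29 to -1.61 in fat. All 6 fat arrays were above the muscle arrays, with a shift of 2.30 (exact permutation test over the 84 splits of 9 arrays, two-sided p = 0.0238, the smallest it can give; 0.0357 adjusted over the 3 pairs). For PSMB9 less PSMB6 it was -4.61 ± 0.31 (SD, n = 3) in muscle and ran from -3.12 to -1.93 in fat. The shift was 2.06, again with 6 of 6 fat arrays above muscle (exact permutation p = 0.0238, adjusted 0.0357). In both pairs the replacing subunit lay above muscle and the constitutive one below it on every fat array. The p of these pairs therefore followed from the values of the single genes and adds nothing to them. The test also takes the 6 fat arrays as independent, which the labels do not settle. The third pair, PSMB10 less PSMB7, was -2.35 ± 0.79 (SD, n = 3) in muscle and -2.30 ± 0.21 (SD, n = 6) in fat, a shift of 0.05 (exact permutation p = 0.952, which does not show that the tissues are alike). Its sign turned without muscle array 1 or 3. With any array left out the exact test of the first 2 pairs had adjusted p-values of 0.0536 to 0.107. Fewer splits remain then, and the fat arrays still all lay above muscle. Each p was thus again the smallest the test can give, and its rise reflects the number of arrays and not the shift.

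**Figure D2:**
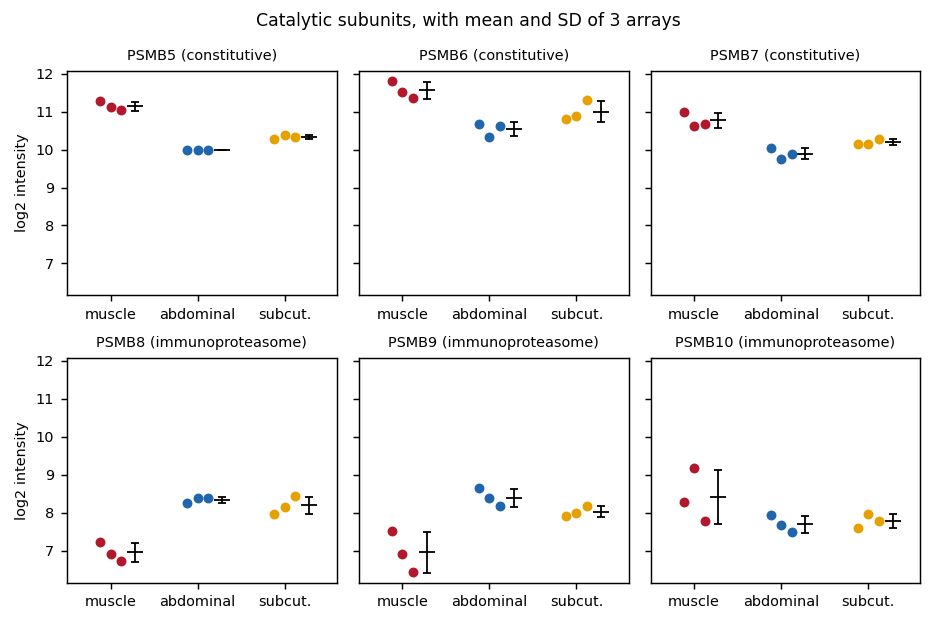
Log2 intensity of the constitutive active-site subunits PSMB5, PSMB6 and PSMB7 (top) and of the immunoproteasome subunits that replace them, PSMB8, PSMB9 and PSMB10 (bottom), by tissue; points are arrays, bars are mean ± SD of 3 arrays. The upper subunits are lower in both fat depots, PSMB8 and PSMB9 are higher, and PSMB10 overlaps.

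Leukocyte markers were also higher in fat. The summed linear intensity of 11 leukocyte markers was 922 to 2085 in muscle, 4507 to 9037 in abdominal and 4785 to 9580 in subcutaneous fat, with 8 markers called higher and none lower; the lymphocyte markers CD3E, CD2 and CD79A were dim, with means under log2 6 in every tissue. Over all probe sets 26.2% were called higher. Summed endothelial markers were 575 to 711, 3810 to 4407 and 2782 to 2861, and summed fibroblast markers 8767 to 13152, 22331 to 28842 and 27987 to 30418. In each of these 2 lists 4 of 5 markers were called higher, all but VWF (-0.04) and LUM (0.31). VWF and KDR were dim, with means under log2 6 in every tissue. The part of these cells in the difference of PSMB8 and PSMB9 was not tested.

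TAP1, a subunit of the peptide transporter of class I presentation, is the 1 protein-coding gene that lies between PSMB8 and PSMB9 in the order of genes on chromosome 23 of the RefSeq assembly ARS-UCD2.0. It read 6.43, 6.12 and 6.18 in muscle, 7.40, 7.37 and 7.55 in abdominal and 7.40, 7.21 and 7.23 in subcutaneous fat. It was thus higher on every fat array, by 1.12 ± 0.11 (limma adjusted p = 2.32e-05). In a list of 16 genes of class I processing and the interferon response, 11 were measured, 9 were higher and 1 was lower, with a median difference of 1.12. Over all probe sets 26.2% were higher and 26.4% lower. The transporter subunit TAP2 was higher by 2.30, the loading factors PDIA3 and TAPBP by 1.70 and 1.32, and the interferon signalling factor STAT2 by 1.69, with a dim muscle mean of 5.38 that leaves its size uncertain. The lower gene was IRF8, at -0.29 (limma adjusted p = 0.0375), whose other probe set was higher by 0.77 (0.00261), and its call was lost with any array left out other than muscle array 3.

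All 6 ATPases of the base were lower in fat, with the lowest median of the subunit groups, -1.03. PSMC1 read 9.95, 9.93 and 9.88 in muscle, 8.46, 8.54 and 8.83 in abdominal and 8.61, 9.05 and 9.01 in subcutaneous fat. The muscle arrays lay close together and far above every fat array, a difference of -1.17 ± 0.13 or 2.25-fold (limma adjusted p = 5.29e-05). PSMC6 read 10.77, 10.55 and 10.30 in muscle, 9.62, 9.46 and 8.94 in abdominal and 9.33, 9.28 and 9.78 in subcutaneous fat. The depots overlapped each other and not muscle, and the difference was -1.14 ± 0.18 (limma adjusted p = 0.000529). The other probe set of PSMC6, slightly dimmer on average, gave -1.58 (limma adjusted p = 1.86e-05).

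PSMC2 read 10.95, 10.97 and 10.65 in muscle, 9.97, 9.62 and 9.66 in abdominal and 9.69, 9.61 and 9.93 in subcutaneous fat. The depots overlapped each other well below muscle, with a difference of -1.11 ± 0.13 over both (limma adjusted p = 7.36e-05). PSMC5 ranged from 10.43 to 10.56 in muscle and from 9.42 to 9.80 in fat, a difference of -0.95 ± 0.11, while its other probe set gave -0.53 (limma adjusted p = 0.0501). PSMC4 read 9.94, 9.96 and 10.01 in muscle, 9.13, 9.13 and 9.01 in abdominal and 9.13, 9.56 and 9.71 in subcutaneous fat, a difference of -0.69 ± 0.13. PSMC3 had the smallest difference of the ring, -0.47 ± 0.13 (limma adjusted p = 0.011), and it did not pass the threshold without muscle array 1 (0.0503).

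The 7 other subunits of the regulatory particle were all lower as well, with a median of -0.78 for the 3 base subunits and for the 4 lid subunits. PSMD14 encodes the metalloprotease of the lid that cuts ubiquitin chains off the substrate. With 1 probe set per gene it had the largest difference of any core or regulatory subunit, though the other probe set of PSMC6 gave -1.58. PSMD14 read 11.31, 11.06 and 10.80 in muscle, 9.81, 9.57 and 9.38 in abdominal and 9.79, 9.99 and 9.99 in subcutaneous fat. Muscle was higher by far on every array, and fat was 2.47-fold lower, a difference of -1.30 ± 0.14 (limma adjusted p = 4.12e-05).

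PSMD4, a ubiquitin receptor of the regulatory particle, ranged from 10.06 to 10.26 in muscle and from 8.98 to 9.50 in fat, a difference of -0.82 ± 0.11 (limma adjusted p = 0.000165). PSMD1, a large scaffold subunit of the base, differed by -0.78 ± 0.11. The lid subunits PSMD11, PSMD13 and PSMD6 differed by -0.78 ± 0.12, -0.77 ± 0.13 and -0.75 ± 0.09. PSMD6 separated the tissues with the least spread: it read 9.82, 9.78 and 9.79 in muscle, 8.84, 8.94 and 8.86 in abdominal and 9.14, 9.20 and 9.30 in subcutaneous fat.

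PSMD2, the other large scaffold subunit of the base, had the smallest difference in the regulatory particle. It read 9.96, 9.85 and 10.09 in muscle, 9.49, 9.19 and 9.54 in abdominal and 9.78, 9.80 and 9.79 in subcutaneous fat. The subcutaneous arrays lay just under the lowest muscle array. The difference was -0.37 ± 0.11 (limma adjusted p = 0.0198) and did not pass the threshold without muscle array 1 (0.0515) or 3 (0.058).

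**Figure D3:**
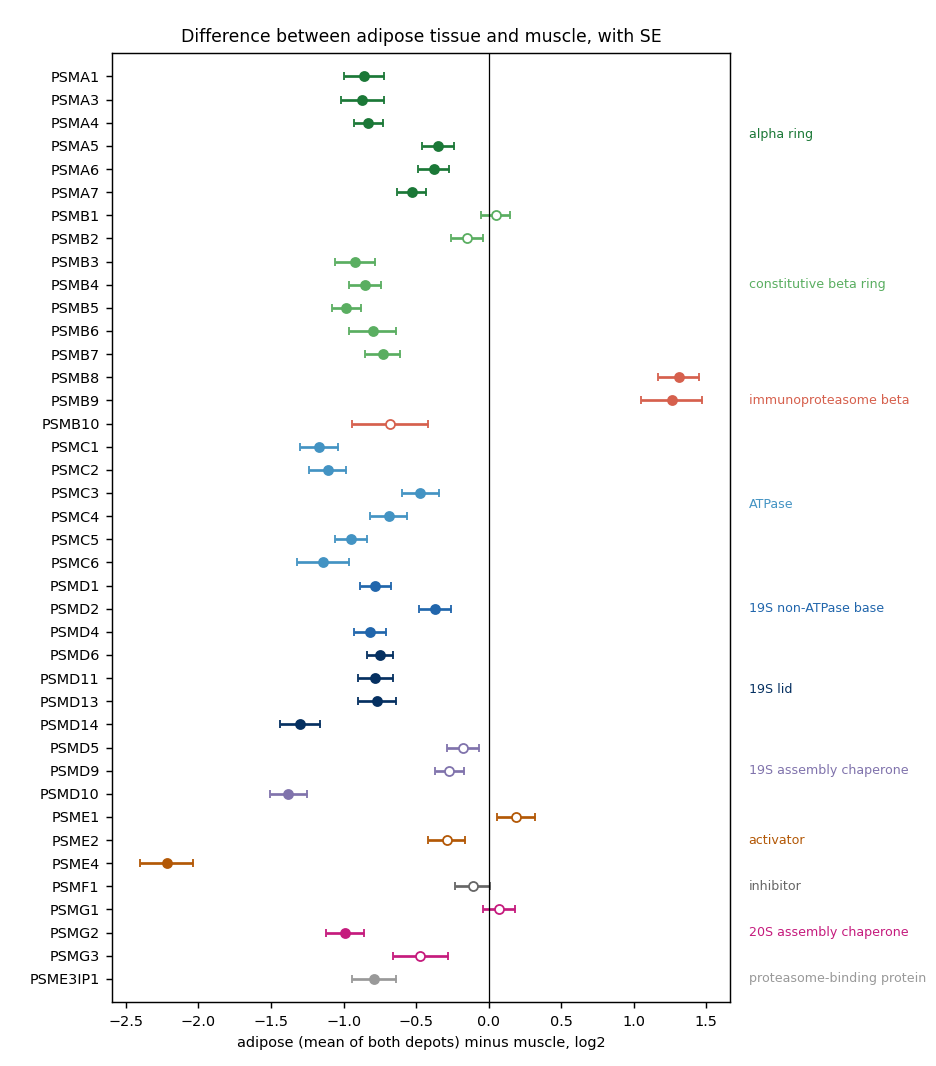
Log2 difference between the mean of both fat depots and muscle for each of the 40 genes, with its standard error from limma (6 fat and 3 muscle arrays), by role; filled points passed an adjusted p of 0.05. Differences run from -2.22 (PSME4) to 1.31 (PSMB8), and all 13 measured subunits of the regulatory particle are filled and below 0.

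The activators, which open the core in place of the regulatory particle, were unlike one another. PSME4 encodes PA200, an activator of the nucleus known for the degradation of acetylated histones. It read 10.25, 10.44 and 10.77 in muscle, 8.38, 7.68 and 8.21 in abdominal and 8.66, 8.26 and 8.41 in subcutaneous fat. No other member differed as much: fat was 4.67-fold lower, a difference of -2.22 ± 0.18 (limma adjusted p = 6.05e-06), with 5.27-fold in abdominal and 4.13-fold in subcutaneous fat.

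PSME1 and PSME2 form the interferon-responsive PA28 ring together, and neither passed the threshold. PSME1 read 9.74, 10.01 and 9.85 in muscle, 10.08, 10.17 and 10.01 in abdominal and 9.75, 10.20 and 10.13 in subcutaneous fat. The tissues overlapped, with a difference of 0.19 ± 0.13 (limma adjusted p = 0.24). PSME2 read 9.81, 9.96 and 9.58 in muscle, 9.38, 9.43 and 9.57 in abdominal and 9.29, 9.70 and 9.59 in subcutaneous fat. Its difference was -0.29 ± 0.13 (limma adjusted p = 0.0859), and it passed the threshold without muscle array 3 (0.0354) and with centred arrays (0.0241).

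PSMF1, the inhibitor also known as PI31, read 8.19, 8.50 and 8.63 in muscle, 8.34, 8.29 and 8.37 in abdominal and 8.40, 8.19 and 8.35 in subcutaneous fat. All 3 tissues overlapped, with a difference of -0.11 ± 0.12 (limma adjusted p = 0.448). PSME3IP1 ranged from 8.60 to 9.18 in muscle and from 8.03 to 8.36 in fat, a difference of -0.79 ± 0.15 (limma adjusted p = 0.00145).

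The chaperones of the regulatory particle bind its ATPases during assembly and leave before the particle is complete, and 1 of the 3 passed the threshold; all 3 did with centred arrays. PSMD10, or gankyrin, read 9.13, 9.58 and 9.68 in muscle, 8.13, 8.29 and 8.37 in abdominal and 7.88, 7.92 and 7.89 in subcutaneous fat. It was 2.61-fold lower in fat, a difference of -1.38 ± 0.13 (limma adjusted p = 1.9e-05), and unlike most members it was lowest in subcutaneous fat. PSMD9 read 8.65, 8.68 and 8.40 in muscle, 8.06, 8.23 and 8.09 in abdominal and 8.48, 8.50 and 8.46 in subcutaneous fat. Only its abdominal arrays lay below muscle, and the difference over both depots was -0.27 ± 0.10 (limma adjusted p = 0.0513; 0.0135 without muscle array 3). PSMD5 ranged from 9.56 to 9.82 in muscle and from 9.29 to 9.71 in fat, a difference of -0.18 ± 0.11 (limma adjusted p = 0.174). With centred arrays PSMD9 stood at -0.39 (limma adjusted p = 0.0116) and PSMD5 at -0.30 (0.0352).

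The chaperones of the core were measured for 3 of 4 genes, and 1 passed the threshold. PSMG1 and PSMG2 act as a pair in building the alpha ring. PSMG2 read 10.36, 10.52 and 10.43 in muscle, 9.05, 9.46 and 9.36 in abdominal and 9.38, 9.69 and 9.71 in subcutaneous fat. It was 1.99-fold lower, a difference of -0.99 ± 0.13 (limma adjusted p = 0.000128). Its partner PSMG1 read 9.67, 9.68 and 9.52 in muscle, 9.74, 9.92 and 9.61 in abdominal and 9.56, 9.74 and 9.62 in subcutaneous fat. These arrays overlapped throughout, with a difference of 0.07 ± 0.11 (limma adjusted p = 0.588), or -0.04 with centred arrays. PSMG3 ranged from 7.63 to 8.49 in muscle and from 7.24 to 7.88 in fat, a difference of -0.47 ± 0.19 (limma adjusted p = 0.0646), and it passed the threshold without muscle array 3 (0.00284) and with centred arrays (0.0267).

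Each depot was then set against the same 3 muscle arrays, so the values of the depots are not independent of each other. Against muscle, 31 members were lower and 2 higher in abdominal fat, where 23.1% of all probe sets were lower and 23.5% higher, with a median of -0.88. In subcutaneous fat 25 members were lower and 2 higher, where 22.4% of all probe sets were lower and 24.6% higher, with a median of -0.58. PSMB8 and PSMB9 were the genes higher in both, by 1.39 and 1.44 in abdominal and by 1.24 and 1.07 in subcutaneous fat.

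The core subunits had a median of -0.97 in abdominal and -0.57 in subcutaneous fat, and the regulatory subunits -0.95 and -0.69. PSMB3 stood at -1.20 and -0.64, PSMB5 at -1.15 and -0.81, and PSMD14 at -1.47 and -1.13. PSMA5 was lower by 0.63 in abdominal fat (limma adjusted p = 0.00243) and stood at -0.08 in subcutaneous fat (0.65). PSMD2 was lower by 0.56 in abdominal fat (0.00574) and stood at -0.18 in subcutaneous fat (0.289), and PSMB2 stood at -0.40 (0.0246) and 0.09 (0.585).

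Some of these calls rested on single arrays. In abdominal fat PSMB2 did not pass the threshold without muscle array 1 (0.0669) or abdominal array 2 (0.0646) or 3 (0.0758), PSMC3 without muscle array 1 (0.0532) or abdominal array 2 (0.0602), and PSMG3 without any array other than muscle array 3 (up to 0.159). In subcutaneous fat PSMB6 did not pass without muscle array 1 (0.0929) or subcutaneous array 1 (0.0946) or 2 (0.0806), PSMC4 without subcutaneous array 1 (0.0664), and PSMC3 without muscle array 1 or 2, abdominal array 3 or any subcutaneous array (0.0516 to 0.117).

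The tissue means ran in the same order for most members. For 31 of 40 genes, or 77.5%, abdominal fat was lowest and muscle highest with subcutaneous fat between them, an order found for 24.9% of all genes. Among the core and regulatory subunits it was 23 of 26, the others being PSMB1 and PSMB2, with subcutaneous fat highest, and PSMC2, with subcutaneous fat lowest. PSMB8, PSMB9, PSME1 and PSMG1 had the reverse order, and PSMD10 and PSMF1 joined PSMC2. For many genes the neighbouring depots in this order overlapped, so the order of means is a description.

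In the direct comparison of the depots no member passed the threshold, where 1.31% of all probe sets did. The differences lay mostly on one side: 33 of 40, or 82.5%, were below 0, against 56.0% of all genes. The median abdominal-minus-subcutaneous difference was -0.29, against -0.04 over all genes. At an unadjusted p of 0.05, 14 members were lower in abdominal fat and 1 was higher, where 8.02% and 6.44% of all probe sets were. All 3 abdominal arrays lay below all 3 subcutaneous arrays for 19 members, or 47.5%, against 13.9% of all probe sets and 18.4% of those at least as bright as the dimmest member. They lay above for 1 member, PSMD10, against 9.69% of all probe sets. The members were read on the same few arrays and moved together. Of 26 core and regulatory genes, 19 lay above their tissue mean on abdominal array 1 and 7 on abdominal array 2. On subcutaneous arrays 1 and 3 it was 6 and 20. The members are thus not independent observations, and their shared side is a description.

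The 13 core subunits were all on the lower side, and the abdominal arrays of all 7 constitutive beta subunits lay below the subcutaneous arrays. PSMA5 had the smallest p, with a difference of -0.56 ± 0.13 (limma adjusted p = 0.0679), followed by PSMB2 at -0.49 ± 0.12 (0.0972) and PSMB3 at -0.57 ± 0.16 (0.122). With arrays weighted by their quality in limma these 3 genes passed the threshold, as did PSMB4, and PSMA5 passed without muscle array 3 (0.0445). PSMD10 stood at 0.37 ± 0.16 (limma adjusted p = 0.312), PSMB9 at 0.37 (0.562) and PSMB8 at 0.15 (0.775).

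**Figure D4:**
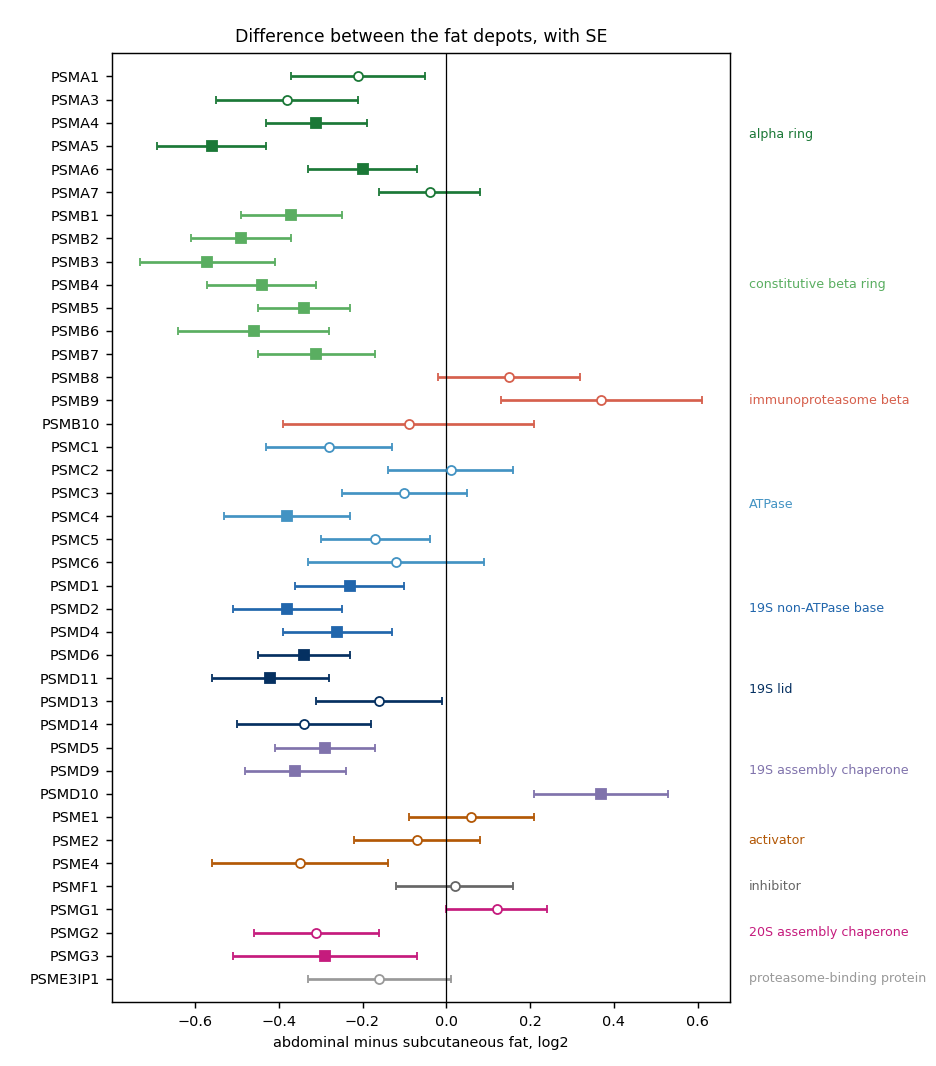
Log2 difference between abdominal and subcutaneous fat for each of the 40 genes, with its standard error from limma (3 arrays each), by role; filled squares mark genes whose abdominal and subcutaneous arrays do not overlap. Of the 40 differences 33 are below 0, as are 56.0% of those of all genes, and none of the 40 passed an adjusted p of 0.05.

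Other genes that work with the proteasome were counted in lists. The shares to set beside each count are those over all probe sets, 26.4% lower and 26.2% higher in fat. Among probe sets at least as bright as the dimmest member they were 29.6% and 43.1%. Of 13 further proteasome proteins outside the naming rule 10 were measured; 8 were lower in fat than in muscle and none was higher, with a median of -0.93. The ubiquitin ligase UBE3C was lower by 1.60, with dim fat means of 5.37 and 5.45 that leave the size uncertain, the deubiquitinase UCHL5 by 1.42 and the zinc finger protein ZFAND5 by 1.35. POMP, the maturation factor of the core, read 11.98, 11.96 and 11.78 in muscle and 10.39, 10.55 and 10.57 in subcutaneous fat, with abdominal fat between them at 10.90 ± 0.09 (SD, n = 3). Its difference was -1.21 ± 0.10 (limma adjusted p = 8.39e-06). Another POMP probe set of nearly the same brightness gave -0.31 (limma adjusted p = 0.0568). It had the reverse order of the depots, with means of 10.88 in abdominal and 11.08 in subcutaneous fat. A dimmer probe set of ZFAND5 gave -0.32 (limma adjusted p = 0.0554).

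Among 8 measured regulators of proteasome genes, of 11 listed, 6 were lower and 1 higher. NFE2L1, the transcription factor that raises proteasome genes when proteasome activity falls short, read 11.74, 11.37 and 12.06 in muscle, 10.66, 10.44 and 10.63 in abdominal and 10.62, 10.49 and 10.44 in subcutaneous fat. It was lower on every fat array, with a difference of -1.18 ± 0.15 (limma adjusted p = 0.000108). NFYB stood at -1.70, MAFF at -1.41 and KEAP1 at -1.30. The higher gene was NFYA, dim in muscle with a mean of 5.90, at 0.37 (limma adjusted p = 0.0202; 0.0781 with centred arrays and 0.0848 without muscle array 2). NFE2L2, the related stress factor that KEAP1 restrains, stood at -0.07 (limma adjusted p = 0.689), on either side of 0 depending on the setting. A dim probe set of NFE2L2, with means under log2 6, stood at -0.61 (0.00233), and the mean of both probe sets at -0.34 (0.0190).

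Of 12 listed ligases and regulators of muscle atrophy 5 were measured, and all 5 were lower in fat. FBXO32, or atrogin-1, read 10.84, 10.47 and 11.03 in muscle, 7.54, 7.52 and 7.38 in abdominal and 7.49, 6.74 and 7.12 in subcutaneous fat, a difference of -3.48 ± 0.18 (limma adjusted p = 3.63e-07). FBXO40, a muscle ligase, differed by -4.38, with dim fat means of 3.60 and 3.61. STUB1 differed by -1.02, while its other probe set gave 0.13 (0.32), and MUL1 by -0.43, which did not pass without muscle array 2 (0.0698). Of 9 measured genes for substrate delivery and unfolding, of 13 listed, 2 were higher and 3 lower, FAF2 at 1.21, UBQLN1 at 0.50, RAD23B at -1.04, UBQLN2 at -0.99 and NSFL1C at -0.89. These counts lay near the shares over all probe sets, 26.2% higher and 26.4% lower, and are no result about this list. In a list of ubiquitin genes and activating enzymes only 2 of 6 were measured, the activating enzymes UBA1 and UBA6, and neither passed the threshold. No ubiquitin gene of the list was measured.

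Complexes of other kinds were counted for comparison, again beside shares of 26.4% lower and 26.2% higher over all probe sets. The COP9 signalosome, built much like the lid, had 5 of 7 measured genes lower and none higher, with a median of -0.96, COPS4, COPS5, COPS3 and COPS8 standing at -1.69, -1.44, -1.39 and -0.96. The translation factor eIF3, which shares that architecture, had 4 of 11 lower and none higher, with a median of -0.26 and EIF3J at -1.63; the other 3, EIF3H, EIF3G and EIF3I at -0.44 to -0.34, did not pass without muscle array 2 (0.0833 to 0.144). The chaperonin CCT had 4 of 6 lower and none higher, with a median of -0.58 and CCT3 at -0.74. Among 16 measured autophagy genes, the other main route of protein breakdown, 2 were higher and 5 lower, with a median of -0.10, OPTN at -1.16, and MAP1LC3A and NBR1, the latter with a dim muscle mean of 5.74, at 1.02 and 0.51. For eIF3 and autophagy the share of lower genes lay near that over all probe sets, so these counts of lower genes are no result about the lists. Between the depots the medians were -0.17 for the signalosome, 0.10 for eIF3 and -0.01 for CCT.

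**Figure D5:**
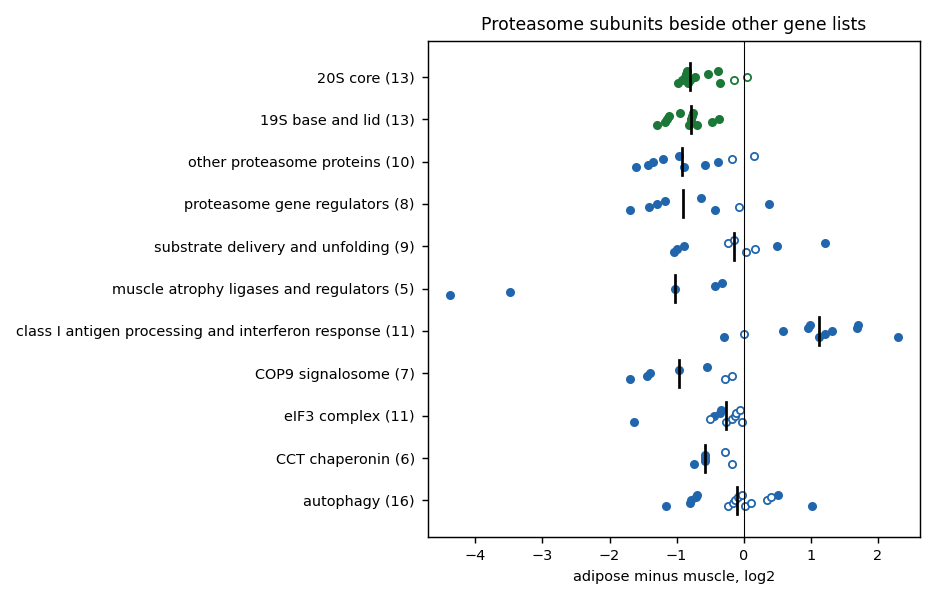
Log2 difference between fat and muscle for each measured gene of the proteasome core (20S), of the base and lid of the regulatory particle (19S) and of 9 other lists; each point is a gene, bars are the list medians and filled points passed an adjusted p of 0.05 in limma. The medians of these 11 sets run from -1.02 for the atrophy list to 1.12 for class I antigen processing.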

How the data were processed

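The deposited table held RMA intensities on a linear scale, 1 column per array; RMA is named in the submitters' processing notes, without a version, and the sources used here give no other step of the authors. The log2 of the deposited intensities was taken with no pseudocount. The table had 24128 rows; without 112 controls, 24016 probe sets entered the tests. Symbols came from the platform annotation, updated through gene identifiers to RefSeq: 13292 probe sets had 1 symbol, 86 several and 10638 none.

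limma 3.58.1 in R 4.3.3 was fitted to all 9 arrays with tissue as the factor, and p-values were adjusted by Benjamini-Hochberg over all probe sets; the script was tested on simulated data. Catalytic pairs were compared by exact permutation of arrays. Alternatives covered scaling, a filter on dim probe sets, variance priors, array weights, a replicate block, the probe set per gene, the threshold and leaving out each array. The members, the lists and the rule for named genes were chosen with earlier results of these data known. Values were named for the catalytic and immunoproteasome beta subunits, activators, the inhibitor and chaperones; for the lowest 3 and highest 2 of each role group; for the 3 smallest depot p; and for up to 4 called genes of each list plus some set regulators. Others were added to complete the groups after their values were seen. The number of arrays limits the precision.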

Additional observations from a re-analysis of the deposited data

How the results depend on the processing

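The number of members lower in fat than in muscle, 28, ranged from 24 to 33 over the other settings (33 with centred arrays, 24 at an adjusted p of 0.01) and from 24 to 31 with 1 array left out; the number higher was 2 in all of them. Calls between abdominal fat and muscle, 33, ranged from 28 to 36 and, with 1 array left out, from 30 to 35; those between subcutaneous fat and muscle, 27, from 24 to 28 and from 24 to 29. Of the 30 called members 26 were called in all 19 settings and none changed sign; PSMA5, PSMA6, PSMC3 and PSMD2 lost the call in some, and 5 uncalled members (PSMB10, PSMD5, PSMD9, PSME2 and PSMG3) were called in some. Between the depots 0 members were called, 4 with array weights, 0 to 1 with 1 array left out, and 15 at an unadjusted p, an alternative chosen after seeing the data. For PSMB8 less PSMB5 the shift was 2.23 to 2.38 with 1 array left out, 2.54 with abdominal and 2.05 with subcutaneous arrays alone; for PSMB9 less PSMB6 it was 1.90 to 2.21, 2.47 and 1.64. In these settings the adjusted exact permutation p of both pairs was 0.0536 to 0.15. Fat and muscle stayed fully separated in both pairs, and fewer arrays leave fewer splits. These p-values are therefore set by the number of arrays and do not measure how stable the shifts are. For PSMB10 less PSMB7 the shift was -0.22 to 0.50 with 1 array left out (-0.13 without muscle array 1) and -0.06 with subcutaneous arrays alone. Signs also turned for PSMB1 (-0.07) and PSMG1 (-0.04) with centred arrays, for PSMF1 (0.01) and NFE2L2 (0.04) with array weights, for NFE2L2 without muscle array 2 (0.00; -0.19 to 0.00 with 1 array left out) and for IRF8 with the mean of its probe sets (0.24); the cause was not tested.

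With the number that opens the sample titles as a replicate block, 30 members were lower and 2 higher, 34 and 27 were called in each depot against muscle and 0 between the depots. Deviations of 7 same-numbered pairs correlated at 0.04 to 0.36 and of 20 other pairs at -0.32 to 0.17. Between the fat depots, same-numbered pairs correlated at 0.33 and 0.36 and other pairs at -0.32 to 0.09. Of 8 arrays with a partner, 6 correlated best with their own number. The labels do not say that the numbers pair samples, so the pairing was not used.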
